A study of Ovis aries with 6 samples.

Results

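PECAM1, VWF and LYVE1 are genes whose products mark endothelium, the cell layer that lines vessels. They were taken from the table by symbol, with earlier results of these data known, and 3 of 3 were listed, of 14480 rows in the gene table. PECAM1 is ENSOARG00000014779, VWF is ENSOARG00000008752 and LYVE1 is ENSOARG00000011072. The libraries came from ovaries of ewes in estrus: 3 from Hu sheep, a breed known for large litters, and 3 from Mongolian sheep, which usually bear single lambs. Neither group had a treatment or an altered gene according to the labels, and all 6 libraries were made from polyadenylated RNA. The labels name ovary as the tissue, although the series title names exosomes. They give neither the age of the ewes, nor the part of the ovary, nor whether replicates are separate animals, so p-values measure only the spread between these libraries. Levels are in FPKM (fragments relative to transcript length and to the size of the library), so genes can be compared with each other, but the depth behind a value is unknown.

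Blood vessels and lymphatic vessels are lined by related but distinct endothelial cells. PECAM1 is an adhesion protein at the junctions between them, and in human and mouse it is also carried by platelets and leukocytes. VWF is a very large secreted protein that tethers platelets and carries clotting factor VIII; endothelial cells of blood vessels store it in Weibel-Palade bodies. LYVE1 is a hyaluronan receptor of lymphatic endothelium that some tissue macrophages of human and mouse also carry. In the ovary both kinds of vessel grow and regress with each follicle and each corpus luteum.

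With the values as deposited, the blood markers PECAM1 and VWF stood highest in Hu 1 and Hu 3. The lymphatic marker LYVE1 stood highest in Hu 2 and Mongolian 2. For each of the 3 genes the Hu values centred above the Mongolian values, and for each of them the breeds overlapped. None of the 3 passed the test between breeds.

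PECAM1 stood at 5.23, 2.24 and 8.36 FPKM in Hu 1, 2 and 3, against 1.04, 2.32 and 0.906 FPKM in Mongolian 1, 2 and 3. Hu 3 and Hu 1 were above every Mongolian library, and Hu 2 lay just under Mongolian 2. The level averaged 5.28 ± 3.06 FPKM in Hu and 1.42 ± 0.779 FPKM in Mongolian (SD, n = 3 each), a ratio of 3.71. On the log2(FPKM + 1) scale, which understates changes of low genes, the difference of Hu minus Mongolian was 1.29 with a standard error of 0.74 (95% confidence interval from -0.29 to 2.87). Its limma adjusted p over 9971 genes was 0.998, and the median difference of those genes was -0.28.

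VWF stood at 6.16, 2.38 and 4.72 FPKM in Hu 1, 2 and 3, against 2.87, 2.53 and 1.57 FPKM in Mongolian 1, 2 and 3. Again Hu 1 and Hu 3 led, and Hu 2 lay within the Mongolian range. The level averaged 4.42 ± 1.91 FPKM in Hu and 2.32 ± 0.674 FPKM in Mongolian (SD, n = 3 each), a ratio of 1.91. The log2 difference was 0.66 with a standard error of 0.71 (95% confidence interval from -0.84 to 2.17; limma adjusted p = 0.998). Without Hu 1 it was 0.43, and without both Hu 1 and Hu 3 it was 0.05.

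LYVE1 stood at 1.61, 8.89 and 1.86 FPKM in Hu 1, 2 and 3, against 0, 2.59 and 0 FPKM in Mongolian 1, 2 and 3. It was the only one of the 3 genes listed at 0 in any library. Hu 2 held more than any other library, and Mongolian 2 lay above Hu 1 and Hu 3. A listed 0 may be a missed transcript, which was not tested. In Mongolian 1 and 3 the housekeeping gene HPRT1 stood at 9.61 and 0 FPKM and TBP at 2.79 and 2.98 FPKM. Both were at 0 in Hu 1, where LYVE1 was not. The log2 difference was 1.45 with a standard error of 0.80 (95% confidence interval from -0.26 to 3.17; limma adjusted p = 0.998). Without Hu 2 it was 0.84, and with library weights it was 2.36 with a limma adjusted p of 0.0398. With those weights 633 of 9971 genes were called, 75 higher and 558 lower in Hu, against 0 without them. Those weights gave Hu 2 a weight of 3.64, against 0.412 for Hu 1 and 0.25 for Hu 3. Over all its alternatives the adjusted p of LYVE1 ranged from 0.0398 to 1.00.

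**Figure D1:**
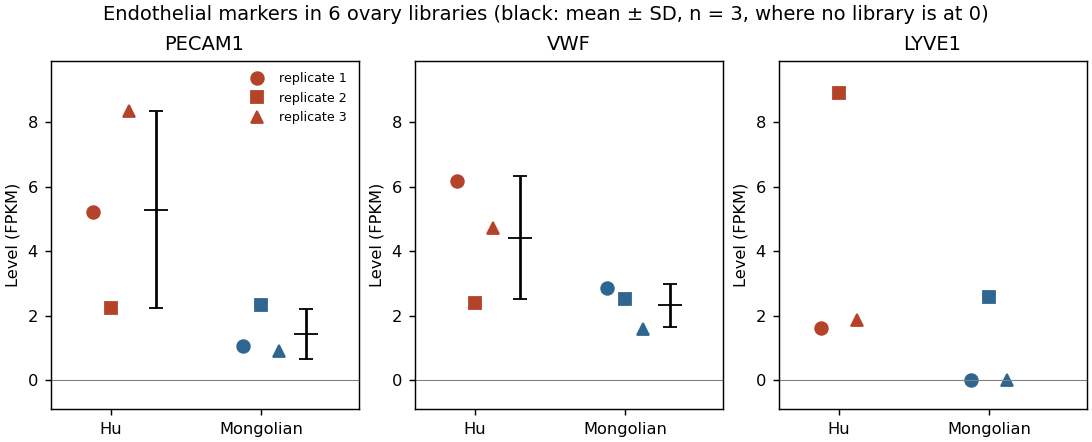
Level in FPKM of PECAM1, VWF and LYVE1 in each library, Hu left and Mongolian right; marker shape gives the replicate number, and black bars give mean ± SD (n = 3) for the genes with no library at 0. Hu 1 and Hu 3 lead for PECAM1 (5.23 and 8.36) and VWF (6.16 and 4.72), while Hu 2 leads for LYVE1 (8.89).

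Beside these 3 genes, 0 of the 9971 genes tested had a limma adjusted p under 0.05 in either direction (0% higher and 0% lower in Hu), and 372 had an unadjusted p under 0.05. Those 372 made up 3.73% of the genes tested, 0.913% higher and 2.82% lower in Hu, and none of the 3 markers was among them. A log2 difference above that of PECAM1 was found in 1.73% of genes tested, above that of VWF in 7.32% and above that of LYVE1 in 1.14%. All 3 genes passed the filter of at least 0.5 FPKM in 3 libraries, PECAM1 and VWF with all 6 libraries and LYVE1 with 4. All 3 Hu libraries of LYVE1 were among those 4, so it would have passed through Hu alone.

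The Hu libraries differed from each other in how many rows they listed above 0, with 6500 in Hu 1, 7971 in Hu 2 and 13342 in Hu 3, against 10547 to 11463 in Mongolian libraries. Between 53.3% and 79.7% of each library's summed FPKM lay in 2 rows, with the lowest share in Hu 3. The part of either in the results was not tested. Some markers of ovarian cells, though not all, were above 0 in every library. The collagen gene COL1A1 of stroma ranged from 251 to 430 FPKM in Hu and from 286 to 367 FPKM in Mongolian. Of 10 tested stroma genes, 3 were higher in Hu without overlap, 0 were lower without overlap, and 0 passed the limma test. Among all genes tested, 1.88% were higher and 6.05% lower in Hu without overlap. The granulosa gene INHA ranged from 15.6 to 99.1 FPKM in Hu and from 15.8 to 40.4 FPKM in Mongolian. Of 9 granulosa symbols 5 were listed, of which 2 were at 0 in Hu 1 and 1 in each of Mongolian 1 and Mongolian 2.

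The order of libraries was then compared between blood and lymphatic markers. PECAM1 ran from Hu 3 through Hu 1, Mongolian 2, Hu 2 and Mongolian 1 down to Mongolian 3. VWF ran from Hu 1 through Hu 3, Mongolian 1, Mongolian 2 and Hu 2 down to Mongolian 3. LYVE1 ran from Hu 2 through Mongolian 2, Hu 3 and Hu 1 down to the Mongolian libraries at 0. With the values as deposited, the blood markers thus shared their leading libraries and their last one. The library that led for LYVE1 was in place 4 for PECAM1 and in place 5 for VWF. Among all genes tested, Hu 3 was the highest library for 45.0% and Hu 1 for 4.47%. Each library gives a single value, so neighbours in these orders have no spread of their own to be set against.

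The ratio of LYVE1 to the mean of PECAM1 and VWF restates the same values within each library and is not a separate result. It was 0.282, 3.85 and 0.285 in Hu 1, 2 and 3, against 0, 1.07 and 0 in Mongolian 1, 2 and 3. LYVE1 was the highest of the 3 genes in Hu 2 and Mongolian 2 and the lowest in the other 4 libraries. On the log2(FPKM + 1) scale, LYVE1 minus the mean of the blood markers was -1.36, 1.58 and -1.35 in Hu, against -1.49, 0.07 and -1.15 in Mongolian. The breed difference of that quantity was 0.48 and turned to -0.50 without Hu 2, within a spread of 1.69 (SD, n = 3) between Hu libraries. As a score over genes chosen with results known, it was given no test.

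PECAM1 to VWF ratios were closer to each other, at 0.849, 0.943 and 1.77 in Hu 1, 2 and 3, against 0.364, 0.918 and 0.578 in Mongolian 1, 2 and 3. VWF exceeded PECAM1 in all libraries but Hu 3. Hu 3 was the library with the most rows listed.

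Rescaling the libraries moved the order at its top and in its middle. After median-of-ratios scaling PECAM1 stood at 7.85, 2.63 and 5.23 in Hu 1, 2 and 3, against 0.969, 2.31 and 0.759 in Mongolian 1, 2 and 3. Hu 1 then led in place of Hu 3, and the breeds no longer overlapped. VWF stood at 9.25, 2.79 and 2.95 in Hu, against 2.66, 2.52 and 1.31 in Mongolian, again without overlap but with Hu 2 and Hu 3 close to the Mongolian range. With every library set to a common summed FPKM, PECAM1 again did not overlap and VWF did. With that sum taken without the 2 most abundant rows, VWF in Hu 2 and Hu 3 (2.94 and 2.88) lay under Mongolian 1 (3.001). Hu 1 and Mongolian 1 were then the leading pair for VWF, in place of Hu 1 and Hu 3. LYVE1 kept Hu 2 first and Mongolian 2 next under all these scalings, and overlapped under each. No scaling changed the direction of the 3 breed differences. Over all genes tested, breeds without overlap were counted only for the values as deposited (1.88% higher and 6.05% lower in Hu), not after rescaling.

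Relative to other genes in the same library, PECAM1 exceeded 78.7%, 50.3% and 66.0% of the genes tested in Hu 1, 2 and 3, against 19.7%, 39.7% and 16.6% in Mongolian 1, 2 and 3. VWF exceeded 81.4%, 51.6% and 47.6% of them in Hu and 45.4%, 42.7% and 25.5% in Mongolian. By this rank all 3 Hu libraries lay above all 3 Mongolian libraries for both genes. The share of all genes tested that did so was not counted. Among only the rows that a library listed above 0 they overlapped: PECAM1 exceeded 36.2% of those rows in Hu 2, against 45.6% in Mongolian 2. VWF exceeded 37.9% of them in Hu 2, against 46.9% and 48.4% in Mongolian 1 and 2. LYVE1 exceeded 56.4%, 83.5% and 20.2% of genes tested in Hu, against 43.6% in Mongolian 2, so Hu 3 ranked under Mongolian 2. The rank among rows above 0 leaves out genes at 0 and also takes in rows under the filter. Which of these removed the separation of PECAM1 and VWF was not tested. Hu 1 and Hu 2 listed the fewest rows above 0.

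Other markers of blood endothelium were divided in direction with the values as deposited. Of a list of 31 symbols that includes both, 23 were listed and 18 tested, and 0 of 18 passed the limma test. Of the 18, 9 had a positive log2 difference and 9 a negative one, against 32.3% positive among all genes tested. The median was -0.04, against -0.28 for all genes, and without PECAM1 and VWF it was -0.19 over 16 genes. The direction depended on the setting: the median of the whole list was 0.38 with 13 of 18 positive after quantile normalization, and 0.44 with 7 of 8 positive among genes above 0 in all 6 libraries. In bulk tissue, fewer cells of a type and less RNA per cell cannot be told apart.

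RAMP2, a partner of the adrenomedullin receptor, was the most abundant marker of that list, at 0, 16.6 and 19.3 FPKM in Hu 1, 2 and 3, against 12.8, 9.18 and 5.26 FPKM in Mongolian 1, 2 and 3. ECSCR, a surface protein of endothelial cells, stood at 13.9, 3.59 and 11.7 FPKM in Hu, against 6.35, 13.4 and 2.16 FPKM in Mongolian. ENG, endoglin, a co-receptor for transforming growth factor beta, stood at 5.28, 3.39 and 5.92 FPKM in Hu, against 3.15, 3.59 and 4.59 FPKM in Mongolian. ENG and ECSCR were thus high in Hu 1, whereas RAMP2 was listed at 0 there.

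CD34, a sialomucin of endothelial and stromal cells, was the only marker of the blood list whose breeds did not overlap. It stood at 0, 4.13 and 6.1625 FPKM in Hu 1, 2 and 3, against 8.37, 8.15 and 6.163 FPKM in Mongolian 1, 2 and 3, so Hu 3 and Mongolian 3 were nearly equal. Over all genes tested, 6.05% were lower in Hu without overlap and 1.88% higher. The log2 difference of CD34 was -1.35 with a standard error of 0.79 (limma adjusted p = 0.998).

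Hu 1 held its high PECAM1 and VWF values while 13 of the 23 listed blood markers were at 0 in it (56.5%), close to the 55.1% of all rows at 0 there. In Hu 2 such markers numbered 10 and in Hu 3 they numbered 0, against 4 or 5 in each Mongolian library. Among those at 0 in Hu 1 were KDR, the main receptor for vascular endothelial growth factor, and FLT1, a second receptor of that family. KDR stood at 1.12 and 3.39 FPKM in Hu 2 and Hu 3, against 0.99, 1.88 and 1.78 FPKM in Mongolian. CDH5, the cadherin of endothelial junctions, was named after its values were seen. It stood at 2.95, 0.16 and 2.29 FPKM in Hu, against 0.35, 1.28 and 0.89 FPKM in Mongolian, so Hu 1 and Hu 3 led and Hu 2 was last. Apart from PECAM1 and VWF, which set this pair, Hu 1 and Hu 3 were the leading pair for 3 of the 16 other tested blood markers, CDH5, ENG and PLVAP. That pair led for 5.19% of all genes tested.

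Lymphatic markers other than LYVE1 also did not separate the breeds by the test. Of 12 symbols, LYVE1 included, 10 were listed and 9 tested, and 0 of 9 passed the limma test. The log2 difference was positive in 6 and negative in 3, with a median of 0.66, and without LYVE1 the median was 0.63 over 8 genes. The difference between the medians of the lymphatic and blood lists was not tested. Summed over the listed lymphatic markers, the level was 48.7, 65.7 and 78.9 FPKM in Hu, against 52.6, 43.0 and 49.9 FPKM in Mongolian, so Hu 1 lay within the Mongolian range.

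PROX1, the transcription factor that sets lymphatic identity, stood at 3.54, 7.63 and 14.02 FPKM in Hu 1, 2 and 3, against 3.87, 7.70 and 2.99 FPKM in Mongolian 1, 2 and 3. CCL21, a chemokine that draws dendritic cells into lymphatic vessels, stood at 18.3, 23.0 and 30.02 FPKM in Hu, against 20.0, 7.77 and 14.9 FPKM in Mongolian. Hu 3, not Hu 2, was the highest library for both genes, and both overlapped between breeds. Hu 3 was also the highest library for 45.0% of all genes tested, against 7.17% for Hu 2. FLT4, the receptor for lymphatic growth factors, was the only tested lymphatic marker without overlap, at 1.60, 3.15 and 1.58 FPKM in Hu and 0.26, 1.42 and 0.93 FPKM in Mongolian. Its log2 difference was 0.75 with a standard error of 0.67 (limma adjusted p = 0.998). Among all genes tested, 1.88% were likewise higher in Hu without overlap.

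MMRN1, multimerin, a secreted protein of endothelium and platelets, stood at 2.51, 1.10 and 5.14 FPKM in Hu 1, 2 and 3, against 0.48, 1.94 and 0 FPKM in Mongolian 1, 2 and 3. Although it was placed on the lymphatic list, its order matched that of PECAM1 in every position. STAB1, a scavenger receptor shared with macrophages, stood at 2.22, 3.07 and 1.497 FPKM in Hu, against 0.78, 0.84 and 1.55 FPKM in Mongolian. STAB1 was highest in Hu 2, as were LYVE1 and FLT4.

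The remaining tested lymphatic markers had negative differences, whereas RELN, reelin, listed but under the filter, stood at 1.14, 0 and 1.19 FPKM in Hu, against 0.30, 0.48 and 0.34 FPKM in Mongolian. PDPN, podoplanin, stood at 3.01, 3.41 and 11.3 FPKM in Hu, against 13.9, 3.10 and 10.1 FPKM in Mongolian. NRP2, neuropilin, a co-receptor of FLT4, stood at 12.2, 14.5 and 8.51 FPKM in Hu, against 10.3, 14.3 and 16.3 FPKM in Mongolian. The integrin subunit gene ITGA9 stood at 2.57, 1.00 and 3.87 FPKM in Hu, against 2.70, 2.91 and 2.59 FPKM in Mongolian. PDPN and NRP2 are also made outside lymphatic vessels.

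**Figure D2:**
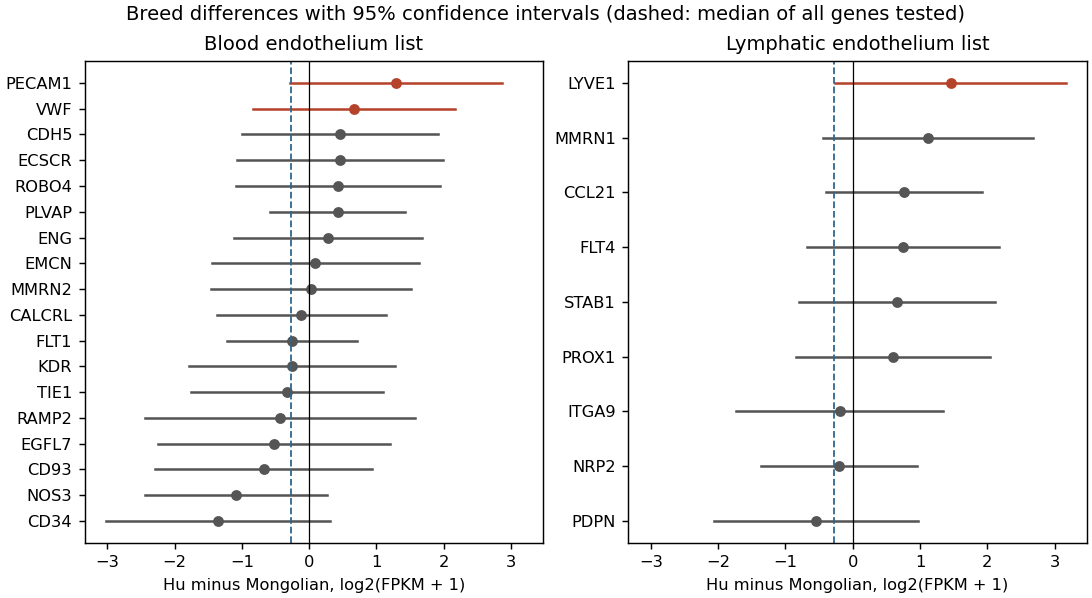
Difference of Hu minus Mongolian on the log2(FPKM + 1) scale with its 95% confidence interval, for the tested markers of blood endothelium (left, 18 genes) and lymphatic endothelium (right, 9 genes); PECAM1, VWF and LYVE1 are in red and the dashed line is the median of all genes tested (-0.28). Every interval includes 0, and 9 of 18 blood markers and 6 of 9 lymphatic markers lie above 0.

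Some macrophage markers, though not all, had the same leading libraries as LYVE1. Of 15 symbols 10 were listed and 8 tested, and 0 of 8 passed the limma test, with 6 of 8 differences positive and a median of 0.24. Hu 2 and Mongolian 2, a pair set by LYVE1, were the leading pair for 5 of the 8 (CD68, C1QC, FCER1G, MSR1 and C1QA). That pair led for 2.05% of all genes tested. The list was written with earlier results of these data known, so these counts are a description and not a test. Apart from LYVE1, the pair led for 0 of the 8 other tested lymphatic markers. Leading pairs were counted on the values as deposited only. For C1QA the lead was small, at 1.64, 1.90 and 0.83 FPKM in Hu, against 0.49, 1.93 and 1.83 FPKM in Mongolian. FCER1G and MSR1 reached 0.5 FPKM only in Hu 2, Hu 3 and Mongolian 2, so they passed the filter through this pair and Hu 3. Summed over the 10 listed genes the level was 16.2, 60.7 and 34.9 FPKM in Hu 1, 2 and 3, against 17.0, 87.4 and 7.61 FPKM in Mongolian 1, 2 and 3. The part of macrophages in the LYVE1 values was not tested.

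CD68, a lysosomal protein of macrophages, stood at 4.93, 19.3 and 7.42 FPKM in Hu, against 6.01, 29.1 and 3.57 FPKM in Mongolian. FCER1G, an adaptor of Fc receptors, stood at 0, 23.8 and 1.59 FPKM in Hu, against 0, 8.93 and 0 FPKM in Mongolian. C1QC, a complement chain made by macrophages, stood at 6.80, 8.63 and 5.97 FPKM in Hu, against 7.75, 23.8 and 0 FPKM in Mongolian. Other macrophage markers did not have this pair in front. MRC1, the mannose receptor, stood at 2.45, 1.58 and 2.36 FPKM in Hu, against 0.50, 1.71 and 1.08 FPKM in Mongolian, with Hu 1 highest. CD14, a receptor for lipopolysaccharide, stood at 0.40, 1.06 and 2.68 FPKM in Hu, against 2.28, 2.33 and 0.46 FPKM in Mongolian. CSF1R, TYROBP and AIF1 also differed from it: AIF1, a cytoskeletal protein, stood at 0, 0 and 9.05 FPKM in Hu and 0, 8.96 and 0.06 FPKM in Mongolian. At 0 in Hu 1 were 5 of the 10 listed genes and in Mongolian 1 likewise 5, with MSR1, TYROBP, CSF1R, FCER1G and AIF1 at 0 in both. MSR1, a scavenger receptor, stood at 4.08 and 3.90 FPKM in Hu 2 and Mongolian 2.

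**Figure D3:**
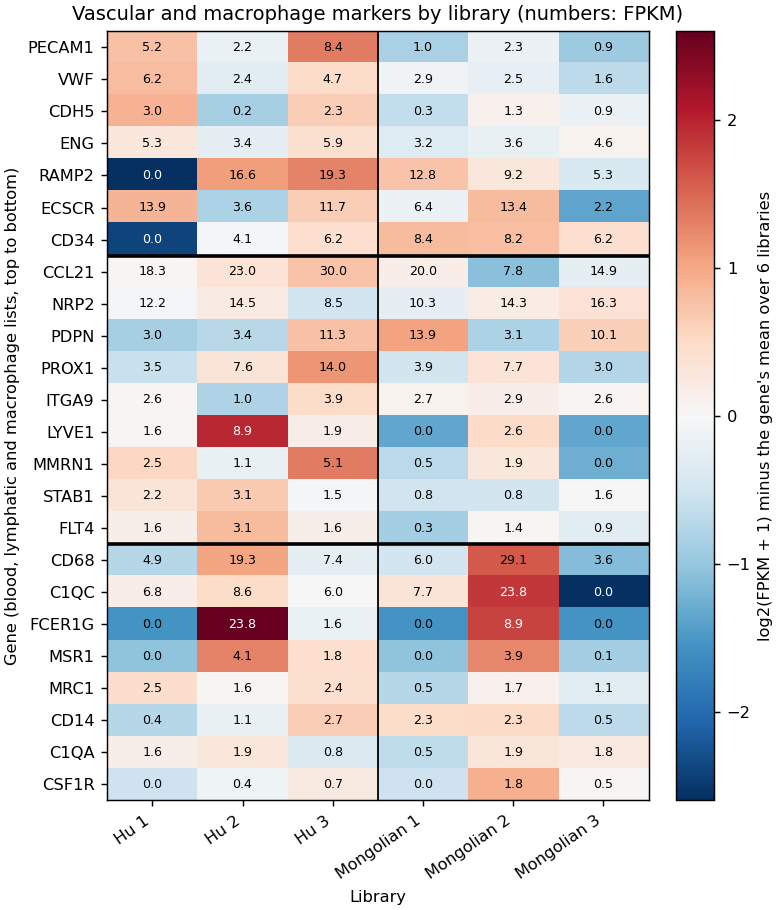
Markers of blood endothelium (top; PECAM1, VWF, CDH5 and the 4 most abundant), lymphatic endothelium (middle) and macrophages (bottom) in each library, Hu left and Mongolian right; numbers are FPKM and colour is log2(FPKM + 1) minus the gene's mean over the 6 libraries. PECAM1, VWF and CDH5 are red in Hu 1 and Hu 3, whereas LYVE1, CD68, FCER1G and MSR1 are deepest red in Hu 2 and Mongolian 2; LYVE1 in Hu 1 and Hu 3 and MSR1 in Hu 3 are also above their means.

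Few markers were listed of platelets, which can carry PECAM1 and VWF, and of leukocytes, which can carry PECAM1. Of 10 platelet symbols 1 was listed, CLEC1B, at 1.25 FPKM in Hu 3 and 0 in the other 5 libraries. Of 15 leukocyte symbols 8 were listed and 3 tested, and these differed in direction. LCP1, plastin, an actin bundler of leukocytes and the most abundant of them, stood at 3.41, 1.95 and 2.33 FPKM in Hu 1, 2 and 3, against 2.54, 2.88 and 0 FPKM in Mongolian 1, 2 and 3. The pan-leukocyte gene PTPRC stood at 1.22, 0 and 1.36 FPKM in Hu 1, 2 and 3, against 2.15, 3.96 and 3.87 FPKM in Mongolian 1, 2 and 3. LCP1 was highest in Hu 1, where PECAM1 was also high, while PTPRC was lower in every Hu library than in any Mongolian one. Among all genes tested, 6.05% were likewise lower in Hu without overlap. CORO1A, coronin, stood at 0, 0 and 2.42 FPKM in Hu, against 1.25, 2.51 and 0 FPKM in Mongolian. S100A9, a calcium-binding protein of neutrophils and monocytes, stood at 0, 0.91 and 3.005 FPKM in Hu, against 0 in all Mongolian libraries. The part of leukocytes in the PECAM1 values was not tested.

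Genes that work with VWF and PECAM1 were compared next. Of 12 genes for storage, cleavage and binding of VWF, 8 were listed and 5 tested, 1 with a positive and 4 with a negative difference. CD63, a tetraspanin of Weibel-Palade bodies and of many other vesicles, stood at 36.8, 47.8 and 77.2 FPKM in Hu, against 42.1, 65.1 and 35.8 FPKM in Mongolian. ANGPT2, an angiopoietin stored with VWF, stood at 0, 1.48 and 4.33 FPKM in Hu, against 4.82, 1.76 and 6.27 FPKM in Mongolian. SYTL4, which acts in granule release, stood at 0, 2.05 and 5.90 FPKM in Hu, against 2.50, 3.99 and 4.42 FPKM in Mongolian. ANGPT2 and SYTL4 were both at 0, as were 55.1% of all rows, in Hu 1, the library with the most VWF.

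Of 12 junction and signalling partners of PECAM1, 9 were listed and all 9 tested, 3 with a positive and 6 with a negative difference. The junction gene CTNNB1, beta-catenin, stood at 12.2, 34.5 and 100.1 FPKM in Hu, against 32.3, 44.7 and 31.5 FPKM in Mongolian. PTPN11, the phosphatase that binds the tail of PECAM1, stood at 1.88, 6.40 and 30.9 FPKM in Hu, against 6.10, 8.54 and 12.0 FPKM in Mongolian. CTNND1, a catenin that binds cadherins, stood at 4.63, 9.17 and 14.4 FPKM in Hu, against 8.45, 11.6 and 18.5 FPKM in Mongolian. These genes were lowest in Hu 1, but others of the list were not. JUP, plakoglobin, stood at 8.70, 2.92 and 12.2 FPKM in Hu, against 4.90, 3.20 and 10.8 FPKM in Mongolian, and CDH5 was highest in Hu 1.

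LYVE1 binds hyaluronan, and of 14 genes of its synthesis, breakdown and binding 10 were listed and 6 tested, 3 with a positive and 3 with a negative difference. CD44, the hyaluronan receptor of many cell types, stood at 6.29, 7.81 and 10.7 FPKM in Hu, against 3.54, 6.34 and 3.11 FPKM in Mongolian. VCAN, versican, which binds hyaluronan in the matrix, stood at 6.69, 6.31 and 5.86 FPKM in Hu, against 3.53, 5.38 and 10.7 FPKM in Mongolian. HYAL1, a hyaluronidase, stood at 0, 3.99 and 3.72 FPKM in Hu, against 0.98, 1.60 and 6.40 FPKM in Mongolian. None of these followed the order of LYVE1.

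The genes most like each marker over the 6 libraries were found by the root mean square difference of log2(FPKM + 1) after centring each gene, among 7571 other genes with a symbol. For PECAM1 they were C7 (0.18), SNRPA1 (0.22), MMRN1 (0.24), MAPRE2 (0.25) and FDX1 (0.27), where a gene without variation would lie at 0.82. C7, a complement component, stood at 2.37, 1.08 and 4.25 FPKM in Hu, against 0.33, 0.49 and 0.04 FPKM in Mongolian. For VWF they were UPF2 (0.13), CCAR1 (0.14), CFAP36 (0.18), S100PBP (0.18) and GLIPR2 (0.18), against 0.50 for a gene without variation. UPF2, a factor of nonsense-mediated decay, stood at 17.5, 8.82 and 15.6 FPKM in Hu, against 9.59, 10.045 and 7.78 FPKM in Mongolian.

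For LYVE1 the nearest genes lay further away: RPP38 (0.35), RRAS (0.47), RSPH1 (0.49), RTN4IP1 (0.49) and HDDC3 (0.51), against 1.14 for a gene without variation. RPP38, a subunit of ribonuclease P, stood at 1.41, 9.88 and 1.74 FPKM in Hu, against 0.32, 1.15 and 0.10 FPKM in Mongolian. VWF was in place 94 of 7571 by likeness to PECAM1, and LYVE1 in place 3892. The lymphatic genes PROX1, FLT4 and CCL21 lay between these, in places 412, 857 and 1070. Seen from VWF, PECAM1 was in place 373, at a distance of 0.487, about that of a gene without variation (0.495). Seen from LYVE1, the macrophage gene MSR1 was in place 34, FLT4 in place 45 and CD68 in place 84. PROX1 came in place 219, FCER1G in place 304, PECAM1 in place 773 and VWF in place 1119. The lymphatic gene CCL21 lay behind these, in place 1466, and the blood gene CDH5 in place 2631. The 6 libraries are shared by all these measures, and with so few libraries a close match is a description only.

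**Figure D4:**
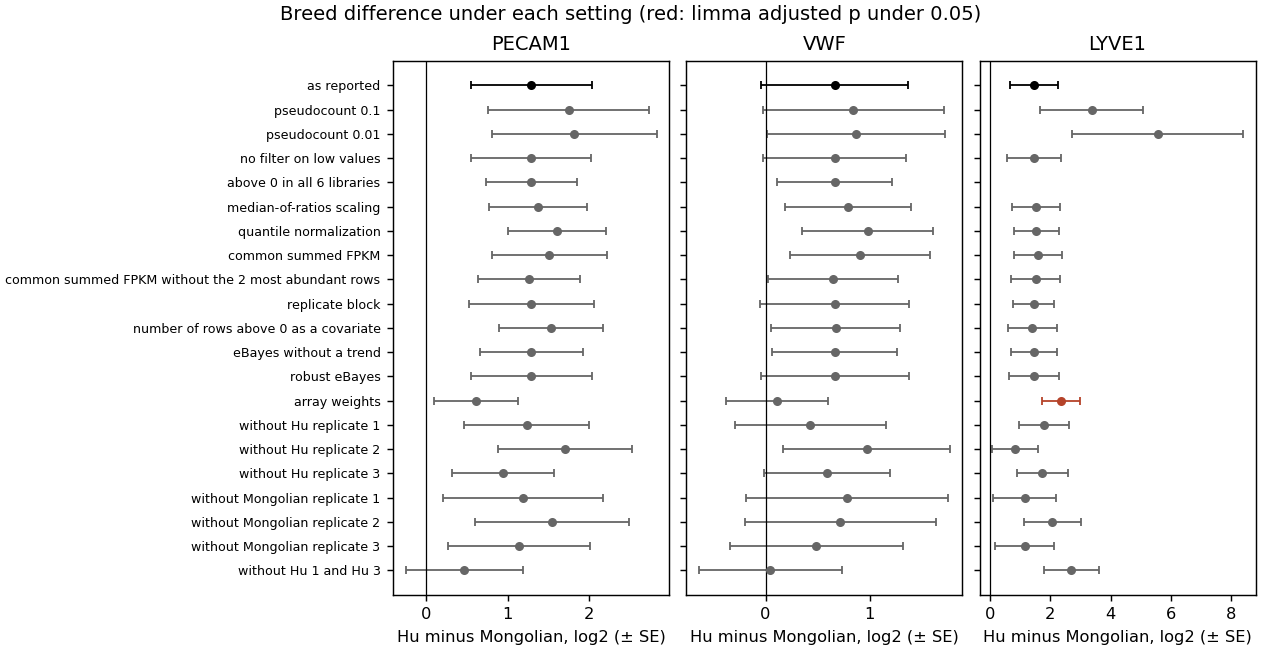
Difference of Hu minus Mongolian (log2, ± SE) of PECAM1, VWF and LYVE1 as reported and under each alternative setting; a missing point means that the gene did not pass that filter. Each value lies above 0, and the single red point marks LYVE1 with array weights (2.36, limma adjusted p = 0.0398). With those weights 633 of 9971 genes were called.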

How the data were processed

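RNA-seq libraries of ovary from 3 Hu and 3 Mongolian sheep were analysed. Per the labels' protocols, RNA was purified with a column kit and libraries were made with a SMARTer kit. The authors deposited FPKM values per gene; aligner, counting tool, strand setting and genome build were not given in the sources used here. A lncRNA table (2455 rows) was not used. Columns were matched to libraries by codes in the sample descriptions. In the RefSeq annotation of ARS-UI_Ramb_v3.0, used for names only, PECAM1 overlaps 1 other gene, MILR1, so shared reads are possible; VWF and LYVE1 overlap 0.

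A gene was tested if 3 or more libraries reached 0.5 FPKM. The two-sided limma test (3.58.1, R 4.3.3; trended eBayes) compared breeds on log2(FPKM + 1), without covariates, with Benjamini-Hochberg adjustment over 9971 genes and calls below an adjusted p of 0.05. The fit was tested on simulated data. The 3 genes, 15 marker lists and tests were chosen with earlier results of these data known, so lists are described by counts and medians. For each list described, the most abundant listed members (up to 4) are named, with all tested lymphatic markers, blood or lymphatic markers without overlap, and 5 genes most like each marker. KDR, FLT1, CDH5, PLVAP, MSR1, C1QA, MRC1, CD14, JUP, RELN, TYROBP, CSF1R, TBP and HPRT1 were named after their values were seen or as checks. A gene that this rule gave is not reported here.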

Additional observations from a re-analysis of the deposited data

How the results depend on the processing

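The direction of PECAM1, VWF and LYVE1 (Hu minus Mongolian) was the same under every alternative that gave a value, 20 for PECAM1 and VWF and 19 for LYVE1. The log2 difference ranged from 0.47 to 1.82 for PECAM1, from 0.05 to 0.98 for VWF and from 0.84 to 5.55 for LYVE1, whose highest value came from a pseudocount of 0.01. LYVE1 passed the limma threshold with array weights (2.36, adjusted p = 0.0398) and under no other setting, and PECAM1 and VWF under none. Calls over the whole table numbered 633 of 9971 with array weights (75 higher and 558 lower in Hu), 6 without Hu 1 and Hu 3, and 0 to 4 with 1 library left out. With 1 library left out the difference ranged from 0.94 to 1.70 for PECAM1, from 0.43 to 0.97 for VWF and from 0.84 to 2.07 for LYVE1. The blood list median was -0.74 and -1.32 with pseudocounts of 0.1 and 0.01, but 0.44 for genes above 0 in all 6 libraries (7 of 8 positive), 0.38 with quantile normalization and 0.31 with the number of rows above 0 as a covariate (13 of 18 positive each). It ranged from -0.52 to 0.16 with 1 library left out. The lymphatic list median was 0.20 with the filter at 5 FPKM, which left 4 of its genes, and ranged from 0.51 to 0.86 with 1 library left out. LYVE1 minus the mean of the blood markers differed between breeds by 2.08 and 4.21 with pseudocounts of 0.1 and 0.01, and by -0.50 to 0.97 with 1 library left out. The causes of these changes were not tested. None of the 3 genes passed the filter at 5 FPKM, and LYVE1 was not above 0 in all 6 libraries. With the replicate number as a block, 0 genes were called and the differences were again 1.29, 0.66 and 1.45. Same-numbered libraries deviated from their breed means with correlations of -0.01, -0.03 and -0.18, against -0.11 to 0.16 for unlike-numbered ones. These values show no pairing by number but cannot exclude it, since the 3 deviations within a breed depend on each other. Without counts, depth sets an unknown limit on the low values.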

Other observations

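Pericytes and vascular smooth muscle, which wrap blood vessels, were well represented. All 12 listed symbols were tested, 0 passed the limma test, 5 differences were positive and 7 negative, with a median of -0.10. MYH11, a smooth muscle myosin, stood at 105, 110 and 176 FPKM in Hu 1, 2 and 3, against 224, 195 and 303 FPKM in Mongolian 1, 2 and 3, without overlap. Among all genes tested, 6.05% were likewise lower in Hu without overlap. ACTA2, smooth muscle actin, stood at 244, 272 and 594 FPKM in Hu, against 379, 231 and 258 FPKM in Mongolian. TAGLN, transgelin, stood at 146, 187 and 399 FPKM in Hu, against 202, 167 and 174 FPKM in Mongolian. CNN1, calponin, stood at 38.5, 73.4 and 119 FPKM in Hu, against 38.5, 53.1 and 57.5 FPKM in Mongolian. The pericyte gene RGS5 (named after its values were seen) was listed at 0, 0 and 74.2 FPKM in Hu, against 8.27, 20.0 and 0 FPKM in Mongolian.

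Among other cell types, red blood cell markers had 1 of 10 symbols listed, AHSP, at 5.94 FPKM in Mongolian 3 alone. Stroma had 8 of 10 tested genes with a positive difference and a median of 0.10, granulosa 3 of 5 and 0.02, theca and luteal cells 4 of 7 and 0.01, surface epithelium 0 of 2 and -0.86, and genes used by nearly all cells 8 of 12 rows and 0.10. None of these genes passed the limma test over all genes.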
